A study of Homo sapiens with 4 samples.

Results

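IL-6 and IL-10, a pair of secreted cytokines, were followed in media conditioned by U937 cells, a human leukaemia line of monocytic character. They were chosen by name, as the rows IL-6 and IL-10 of the protein table, and are 2 of its 23 protein rows. Biotin-labelled medium was read on a protein array, 1 array for each of 4 samples. The samples were F1F2 cells with cytarabine, F2F3 cells with cytarabine, vector cells with cytarabine, and vector cells with PBS. All were stable retroviral lines of U937, the vector cells carrying the empty construct. F1F2 and F2F3 are fragments of TIFA, an adaptor that carries innate immune signals to NF-kB, and the labels describe them as dominant negative. Cytarabine, a nucleoside analogue given in acute myeloid leukaemia, was used at 10 µM for 72 h. The labels give no dose or time for the PBS sample, and they do not say whether each line was a pool or a single clone. No fragment line without the drug was analysed here. The design text gives F1F2 for both fragment lines, and the samples' own titles were followed. The series is about TIFA as a link to NF-kB and drug resistance, and the comparisons below ask how the drug and either fragment changed the medium.

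IL-6 and IL-10 both act through STAT3, a transcription factor that JAK kinases phosphorylate at the cytokine receptor. IL-6 binds its own receptor together with a signalling subunit shared by its family, drives the acute phase response, and is made by activated monocytes under the control of NF-kB and other factors. IL-10 binds a different receptor pair and restrains the production of inflammatory cytokines by monocytes and macrophages. The feedback inhibitor SOCS3 blocks the IL-6 receptor complex but not the IL-10 receptor, which is a textbook account of how opposite outcomes follow from the same transcription factor.

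The DNA just before the start of both genes is shown because NF-kB, the pathway of the study, is known to control the IL6 gene. Each stretch holds the 250 bases before the gene's outermost start in RefSeq, build GRCh38.p14. It lies at chr7:22726950-22727199 on the plus strand for IL6 and at chr1:206772495-206772744 on the minus strand for IL10. Capitals mark matches to the decameric NF-kB consensus or to a STAT motif, TTCNNNGAA, both searched on both strands.
IL6: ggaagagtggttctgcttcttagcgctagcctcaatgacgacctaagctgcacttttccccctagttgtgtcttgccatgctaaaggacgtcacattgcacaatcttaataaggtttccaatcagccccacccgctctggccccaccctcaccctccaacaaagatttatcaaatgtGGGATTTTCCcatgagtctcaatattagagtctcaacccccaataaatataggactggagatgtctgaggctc
IL10: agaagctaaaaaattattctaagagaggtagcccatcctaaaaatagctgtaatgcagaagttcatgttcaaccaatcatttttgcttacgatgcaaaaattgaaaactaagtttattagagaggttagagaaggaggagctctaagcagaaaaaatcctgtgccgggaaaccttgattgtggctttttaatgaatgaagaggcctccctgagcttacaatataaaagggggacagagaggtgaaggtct
The IL6 stretch held 1 match to the NF-kB consensus, GGGATTTTCC, which lies 73 to 64 bases before the start, and the IL10 stretch held none. Neither held the STAT motif. Of 27305 promoters of the same length, 6.58% held the NF-kB consensus and 6.76% held the STAT motif. Among the 16 other genes of the panel with an entry, the NF-kB consensus was found in 4, namely TGFB1 and the GRO chemokine genes CXCL1, CXCL2 and CXCL3, and the STAT motif in 6. These matches describe letters in a window. The array measured protein in medium and did not measure promoter activity.

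Every value is an intensity on a scale where each array's negative control is 0 and its positive control is 1. TGF-beta and TNF-beta had the same value in each sample and were left out, which leaves 21 proteins. With 1 array per condition the error of each value is unknown, no test was possible, and neighbours in the orders below cannot be separated from measurement error. The readings were used as deposited, with no adjustment made here for cell number or viability at collection. Fewer cells and less protein released per cell therefore cannot be told apart.

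IL-6 read 1.47 in F1F2 medium with cytarabine, 1.29 in F2F3 medium with cytarabine, 0.431 in vector medium with cytarabine and 1.23 in vector medium with PBS. Vector cells with cytarabine stood apart as the lowest sample, at 29.3% of the highest, while the other 3 samples lay within 83.4% to 100% of it. Those 3 readings were above the positive control, and no other protein reached it in any sample, the next highest reading being 0.871. Whether the array was still linear above its positive control is not given in the sources used here. IL-6 made up 37.6% of the summed intensity of the 21 proteins in F1F2 medium, 35.2% in F2F3 medium, 9.92% in vector medium with cytarabine and 28.9% in vector medium with PBS.

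IL-10 read 0.184 in F1F2 medium with cytarabine, 0.196 in F2F3 medium with cytarabine, 0.230 in vector medium with cytarabine and 0.210 in vector medium with PBS. All 4 readings lay within 80.0% to 100% of the highest, so no sample stood apart. The order ran opposite to that of IL-6, with vector cells with cytarabine highest and F1F2 cells lowest, but this order changed with the scaling of the arrays, as given below. IL-10 made up 4.70% of the summed intensity in F1F2 medium, 5.35% in F2F3 medium, 5.28% in vector medium with cytarabine and 4.95% in vector medium with PBS.

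**Figure D1:**
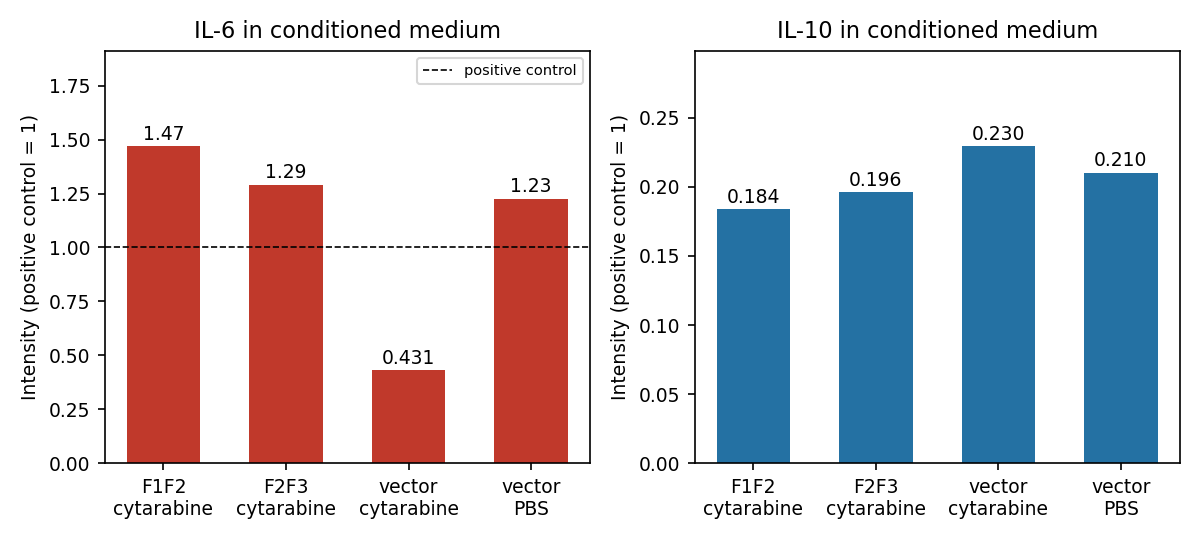
Intensity of IL-6 (left) and IL-10 (right) in the medium of each of the 4 samples, 1 array each, on axes that start at 0 and differ in scale. IL-6 is at 0.431 in vector cells with cytarabine against 1.23 or more in the other samples, whereas IL-10 stays between 0.184 and 0.230.

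Across the 7 proteins at or above 0.1 in all 4 samples, IL-6 and IL-10 were the extremes of variation as deposited. That limit leaves out proteins that fell under 0.1 in any sample, and some of these varied more than IL-6 as deposited. TNF-alpha, at 0.871 in vector medium with cytarabine and 0.0824 in F2F3 medium, differed by 10.6-fold. IL-5, at 0.0123 in vector medium with cytarabine and 0.134 in F1F2 medium, differed by 10.9-fold. That low IL-5 reading is near 0.00990, the floor to which lower readings were raised for ratios. The size of the IL-5 difference is therefore uncertain. The highest IL-6 reading was 3.41-fold the lowest, ahead of GRO, a neutrophil-attracting chemokine family, at 2.46-fold. The highest IL-10 reading was 1.25-fold the lowest, the smallest spread of the 7, next to MCP-1 (CCL2), which attracts monocytes, at 1.29-fold. When arrays were scaled in 4 other ways, the IL-6 spread was 2.68-fold to 5.57-fold and the IL-10 spread was 1.14-fold to 1.87-fold. These places among the 7 depended on the scaling. IL-10 kept the smallest spread only under scaling to the same total. IL-6 kept the largest except under scaling to a common median, where GRO varied more.

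In vector cells, IL-6 was 2.84-fold lower with cytarabine than with PBS, a log2 ratio of -1.51, and IL-10 was within 1.09-fold, higher as deposited and lower under 2 of the 4 other scalings. Ratios of at least 1.5-fold in either direction were called. By this rule 1 of the 2 cytokines was called, in a comparison in which 41.2% of the 17 proteins with a ratio were called. IL-6 had the second lowest of those 17 ratios. In absolute terms its reading differed by -0.795 from that with PBS, while that of IL-10 was 0.0194 higher. The 5 other proteins at or above 0.1 in all samples (GRO, IL-8, MCP-1, MCP-2 and RANTES, all chemokines) had log2 ratios between 0.24 and 0.36. As deposited, IL-6 thus differed in sign from all 5. Scaling to the same total without IL-6 and IL-10 shifts this pair by -0.39 in log2, which puts all 5 below 0 as well. The ratio of IL-6 minus the median of the 5 was -1.81 in log2, which no scaling of whole arrays alters. IL-10, at 0.13 as deposited, lay just under the lowest of them, a distance that scaling of whole arrays leaves unchanged.

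Under cytarabine, IL-6 was 3.41-fold higher in F1F2 medium and 2.99-fold higher in F2F3 medium than in vector medium. The log2 ratios were 1.77 with F1F2 and 1.58 with F2F3. IL-10 had log2 ratios of -0.32 with F1F2 and -0.23 with F2F3, short of the threshold, and their sign turned under other scalings. So 1 of the 2 cytokines was called with either fragment, beside 38.9% of 18 proteins called with F1F2 and 50.0% of 18 with F2F3. IL-6 had the second highest ratio with F1F2 and the fourth highest with F2F3. The 5 bright chemokines ranged from -1.22 to -0.16 in log2 with F1F2 and from -1.30 to 0.06 with F2F3. IL-10 lay inside that range in both comparisons and IL-6 above it in both. Both fragments were set against the same vector array, so the IL-6 ratios share the value 0.431 and are not independent of each other.

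**Figure D2:**
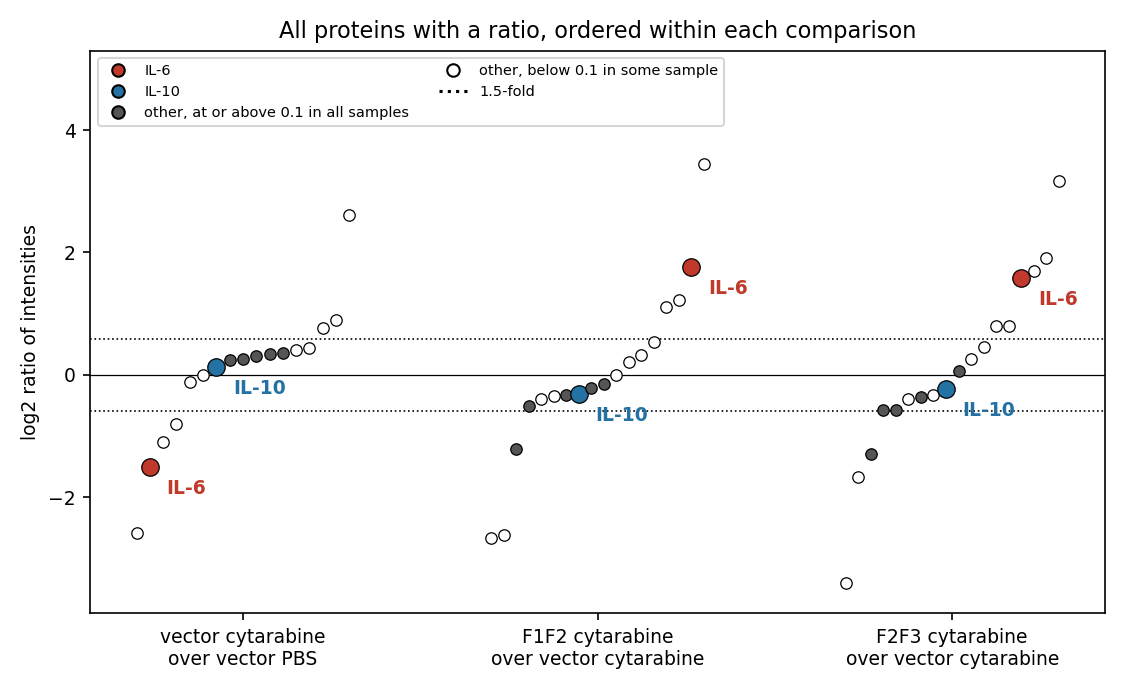
Log2 ratio of intensities for every protein with a ratio, in the order of size within each of 3 comparisons. IL-6 is the large red point, IL-10 the large blue point, filled grey points are the 5 other proteins at or above 0.1 in all samples, and open points are dimmer proteins, some of them bounds because a value was raised to the floor of 0.00990. As deposited, IL-6 lies past the dotted 1.5-fold line in every column and IL-10 in none.

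Set against vector cells with PBS instead, neither cytokine passed 1.5-fold in either fragment sample. IL-6 in F1F2 medium with cytarabine was 1.20-fold the PBS reading, and in F2F3 medium it was 1.05-fold. IL-10 had log2 ratios to PBS of -0.19 with F1F2 and -0.10 with F2F3. So 0 of the 2 were called, beside 37.5% of 16 proteins called with F1F2 and 47.1% of 17 with F2F3. The sign of all 4 values depended on the scaling, and IL-10 passed the threshold as lower under scaling to a common median, with -0.64 for F1F2 and -0.69 for F2F3. These ratios do not use the vector array with cytarabine, the sample on which the calls of IL-6 rest.

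Between the fragments, IL-6 was 1.14-fold higher in F1F2 than in F2F3 medium and IL-10 had a log2 ratio of -0.094. Neither was called, in a comparison that called 17.6% of 17 proteins. With single arrays these differences have no interval.

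The log2 ratio of IL-6 minus that of IL-10 is the same under any scaling of whole arrays, because both proteins were read on the same arrays. This difference was -1.63 for cytarabine against PBS in vector cells, so that IL-6 was 3.10-fold lower relative to IL-10. Under cytarabine it was 2.09 for F1F2 against vector and 1.81 for F2F3 against vector, or 4.26-fold and 3.51-fold higher relative to IL-10. Against PBS it was 0.46 for F1F2 and 0.18 for F2F3, under the size of 1.5-fold. It describes unequal readings of the 2 cytokines on these single arrays and does not show that IL-10 stayed the same. An offset common to both proteins would alter it, and with 0.05 added to or subtracted from every reading it ranged from -1.79 to -1.51 for cytarabine, from 1.92 to 2.32 for F1F2 and from 1.66 to 2.0 for F2F3.

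The scaling of the arrays decided the sign of IL-10 but no call of IL-6 in the 3 main comparisons. IL-6 kept its direction and stayed past 1.5-fold under all 5 alternatives, with log2 ratios from -1.90 to -1.41 for cytarabine against PBS, from 1.24 to 2.48 for F1F2 against vector and from 0.91 to 2.34 for F2F3 against vector. One array of the pair would have to be rescaled by 1.89-fold for the cytarabine call to end, by 2.27-fold for the F1F2 call and by 1.996-fold for the F2F3 call. The scalings tried shifted these pairs by at most 1.31-fold, 1.63-fold and 1.69-fold, but these shifts made the IL-6 ratios larger. In the direction that would end the calls, the largest shifts were 1.06-fold, 1.44-fold and 1.59-fold, all under scaling to a common median. Vector cells with cytarabine had the lowest IL-6 under each of the 4 other scalings too, whereas the highest sample became vector cells with PBS under scaling to a common median. IL-10 ranged from -0.27 to 0.21 for cytarabine against PBS, from -0.85 to 0.39 for F1F2 against vector and from -0.90 to 0.53 for F2F3 against vector. It was called lower with both fragments under scaling to a common median, which lies among dim proteins, at intensities of 0.0328 to 0.0523.

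**Figure D3:**
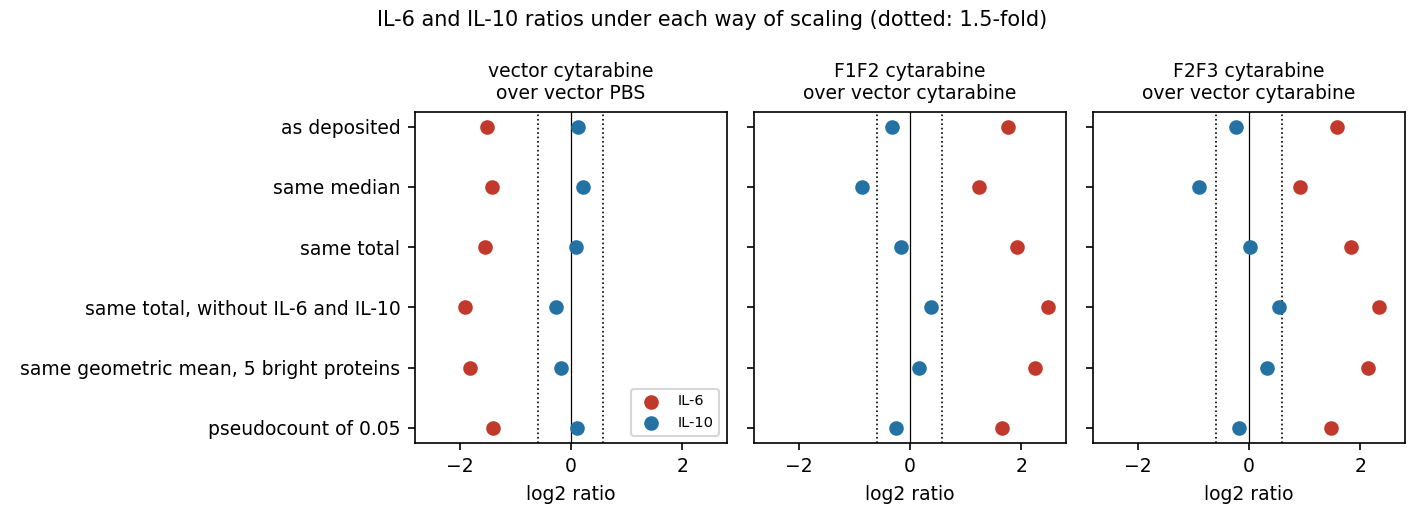
Log2 ratios of IL-6 (red) and IL-10 (blue) as deposited and under 5 alternatives, 4 scalings of whole arrays and a pseudocount of 0.05, for 3 comparisons. The IL-6 points stay beyond the dotted 1.5-fold lines on the same side in each panel, while the IL-10 points fall on both sides of 0.

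The proteins most like each cytokine over the 4 samples were found by the root mean square difference of log2 profiles centred on their own mean, among 12 other proteins at or above the floor in all samples. Nearest to IL-6 was IL-7, a growth factor of lymphocyte precursors, at a difference of 0.27. IL-7 read 0.0377 in F1F2 medium, 0.0523 in F2F3 medium, 0.0162 in vector medium with cytarabine and 0.0347 in vector medium with PBS. It too was lowest in vector cells with cytarabine, but all its readings were dim. IFN-gamma (0.57) and IL-5 (0.67) came next. IFN-gamma, the macrophage-activating cytokine, did not share the low reading with cytarabine, being 0.0328 in both vector samples. IL-5, an eosinophil growth factor, had a deeper low than IL-6 as deposited. Its log2 ratio was -2.59 for cytarabine against PBS, and 3.44 for F1F2 and 3.17 for F2F3 against vector. These ratios share the IL-5 reading of 0.0123 in vector medium with cytarabine, which lies near the floor of 0.00990. Their size is therefore uncertain. Nearest to IL-10 were GM-CSF, a myeloid growth factor, and the chemokines IL-8 and MCP-1, at differences of 0.12, 0.12 and 0.13. Each cytokine kept these 3 proteins as nearest, in another order, when linear profiles were used, whereas scaling of whole arrays cannot alter differences between log2 profiles.

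**Figure D4:**
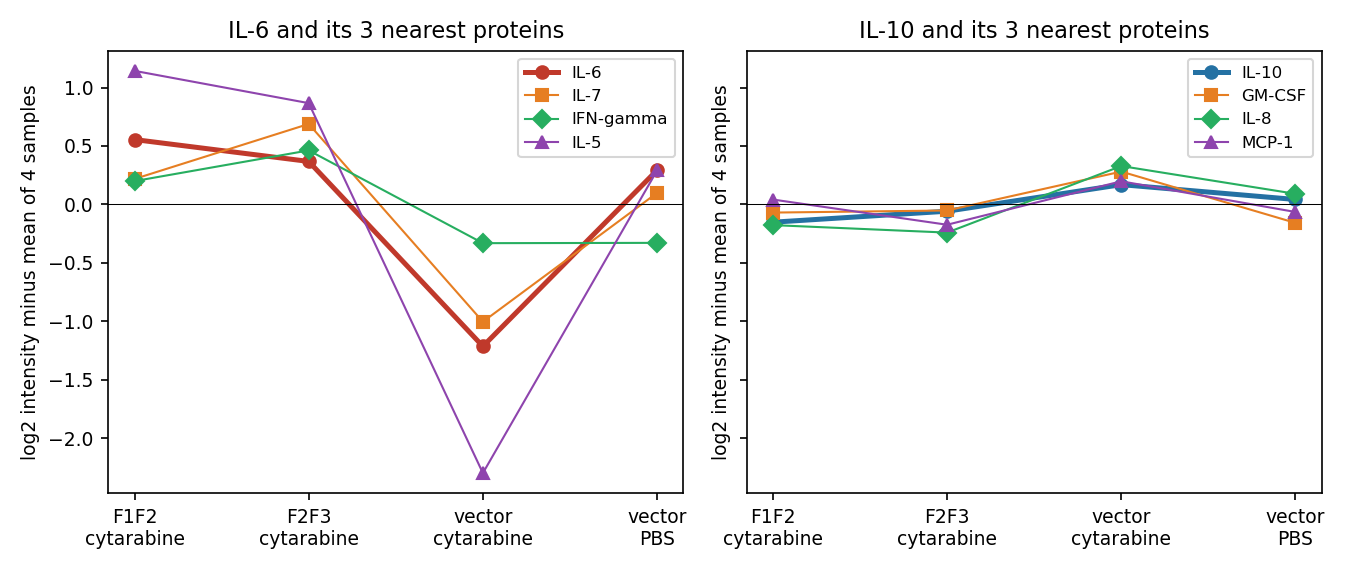
Log2 intensity minus the protein's mean over the 4 samples, for IL-6 with its 3 nearest proteins (left) and IL-10 with its 3 nearest proteins (right), as deposited. IL-6, IL-7 and IL-5 dip in vector cells with cytarabine, and the profiles around IL-10 stay close to 0.

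Of the 9 other cytokines of the panel that signal through JAK and STAT proteins, 6 had a ratio in each of the 3 main comparisons, and none reached the level of 0.1 in all samples. With cytarabine against PBS, 1 was higher (IL-3, which supports early blood progenitors), 2 were lower (IL-5 and IL-7) and 3 were not past 1.5-fold, a share of calls beside 41.2% over all proteins, with a median log2 ratio of 0.20 against 0.26 for all 17 proteins. With F1F2 against vector, 2 were higher (IL-5 and IL-7), none was lower and 4 were not past it, beside 38.9% of all proteins called, with a median of 0.42 against -0.19 for all 18 proteins. With F2F3 against vector, 3 were higher (IL-5, IL-7 and IFN-gamma), none was lower and 3 were not past it, beside 50.0% of all proteins called, with a median of 0.53 against -0.08. IL-5 and IL-7 kept these calls under the 4 other scalings. With the pseudocount of 0.05, IL-5 kept its calls, but IL-7 kept its call only with F2F3. Calls of the other members depended on the scaling. Under scaling to a common median, IL-2 and GM-CSF were called lower with both fragments, IL-2 was called higher with cytarabine against PBS, and IFN-gamma was not called. Every IL-2 ratio is a bound, since IL-2 was above the floor only in vector medium with cytarabine, at 0.0131. These bounds count among the 6 ratios and in the medians. With the total without both cytokines, or the geometric mean of the 5 bright chemokines, IL-3, IL-5, IL-7 and IFN-gamma were called higher with both fragments, which makes 4 higher and 0 lower, and IL-3 was not called with cytarabine. Scaling to the same total added IFN-gamma as higher with F1F2. G-CSF, the member best known for acting through STAT3, read 0.000925 in F1F2 medium, 0.00980 in F2F3 medium, -0.00231 in vector medium with cytarabine and -0.000907 in vector medium with PBS. It was thus under the floor of 0.00990 in all 4 samples, as were IL-13 and IL-15.

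TNF-alpha and IL-1-beta are known to induce IL-6 through NF-kB. TNF-alpha read 0.137 in F1F2 medium, 0.0824 in F2F3 medium, 0.871 in vector medium with cytarabine and 0.467 in vector medium with PBS. It was therefore highest in vector cells with cytarabine, where IL-6 was lowest, and lowest in both fragment samples. IL-1-beta was 0.00993 in vector medium with cytarabine against 0.0174 with PBS, called lower like IL-6, but both values lie near the floor. Against vector it was not called with either fragment as deposited, and with F2F3, at 0.0136, it was called higher under 3 of the 4 other scalings. With F1F2 it read -0.00153, under the floor, so that ratio rests on the floor. The other anti-inflammatory proteins of the panel gave no comparison for IL-10, since IL-13 was under the floor and TGF-beta shares its values with TNF-beta.

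Of 5 listed monocyte products, IL-8, MCP-1, TNF-alpha and RANTES read 0.0824 or more in every medium, while IL-1-beta was near the floor, and under it in F1F2 medium. The 5 summed to 1.40 in F1F2 medium, 1.27 in F2F3 medium, 2.44 in vector medium with cytarabine and 1.78 in vector medium with PBS. The 4 lymphocyte cytokines were listed as typical of cells other than U937. All media came from U937 lines, so sums of this list do not measure lymphocyte content. The 4 summed to 0.161 in F1F2 medium, 0.178 in F2F3 medium, 0.0560 in vector medium with cytarabine and 0.101 in vector medium with PBS. Most of that signal was IL-5 and IFN-gamma, with IL-13 under the floor in all samples and IL-2 above it only in vector medium with cytarabine, at 0.0131. The lymphocyte sum was lowest in vector cells with cytarabine, but that low was the low of IL-5 and not of the list. IL-5 read 0.0123 there, near the floor. It read 0.0741 in vector medium with PBS, 0.134 in F1F2 medium and 0.110 in F2F3 medium. IFN-gamma was 0.0328 in both vector samples, and IL-2 was highest in vector medium with cytarabine. The part of these proteins in the IL-6 result was not tested.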

How the data were processed

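Conditioned media of 4 U937 samples, each alone in its group, were measured on a protein array. The authors deposited intensities for 23 protein rows and 2 control rows. The deposited intensities are 0 for the negative and 1 for the positive control on every array, and 13 of 92 protein values are below 0, so they were read as linear, background-subtracted and relative to the positive control. The sources used here do not name the array, scanner, software or spot averaging. Such arrays have no read depth, and their number, 1 per group, limits the precision.

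Log2 ratios were computed as deposited, without p-values. A floor was set at the 25th percentile of the protein readings, 0.00990, lower readings were raised to it, and proteins with both readings under it got no ratio. Calls start at 1.5-fold. IL-6, IL-10 and the lists were chosen with earlier results of these data known. Other proteins were named for their place in a list or as 1 of the 3 nearest to each cytokine over the 4 samples. Alternatives were array scalings, a pseudocount, an offset, a 2-fold threshold, counting the identical rows and linear profiles. A scaling to the same geometric mean of the 5 other proteins at or above 0.1 was chosen after seeing the data, as was that limit. The code for ratios was tested on simulated data without noise, with all readings above the floor. Its handling of readings under the floor was not tested. Promoter sequences are RefSeq's (GRCh38.p14), matched by symbol. All 24 panel symbols, assigned from the protein names, were found in RefSeq's gene table. Python 3.11.15, pandas 2.3.3, NumPy 2.4.6 and matplotlib 3.10.9 were used.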

Additional observations from a re-analysis of the deposited data

How the results depend on the processing

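In the 3 main comparisons, IL-6 kept its direction and its side of the 1.5-fold threshold under all 5 alternatives, and the difference between IL-6 and IL-10 under both of its alternatives. The IL-10 log2 ratio did not keep its sign. Scaling to the same total without IL-6 and IL-10 turned it to 0.39 for F1F2 against vector, 0.53 for F2F3 against vector and -0.27 for cytarabine against PBS. Scaling to the same geometric mean of the 5 other bright proteins, chosen after seeing the data, gave 0.17, 0.32 and -0.18. Scaling to the same total turned it for F2F3 alone, to 0.018. Scaling to the same median took IL-10 past the threshold, at -0.85 for F1F2 and -0.90 for F2F3. By construction these scalings shift all ratios between readings above the floor alike, by -0.67 to 0.76 in log2. Against PBS, the same median turned IL-6 to -0.19 with F1F2 and -0.51 with F2F3. The total without both cytokines turned IL-10 to 0.12 with F1F2 and 0.26 with F2F3, and for F2F3 the same total gave 0.11 and the geometric mean 0.15. Between the fragments the same median turned IL-10 to 0.048.

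The count of called proteins for cytarabine against PBS was 7, and 4 with a pseudocount of 0.05 or a 2-fold threshold. For F1F2 it was 7 and for F2F3 9, and 14 for each with the same median. The share of higher calls was then 28.6% for either fragment, against 57.1% for F1F2 and 66.7% for F2F3 as deposited. With the total without both cytokines it was 75.0% for F1F2, 81.8% for F2F3 and 20.0% for cytarabine against PBS, the last 42.9% as deposited. Against PBS the counts of 6 with F1F2 and 8 with F2F3 became 2 and 2 with the pseudocount, and 2 and 3 with the 2-fold threshold. Between the fragments the count of 3 became 5 with either total or the geometric mean, and 0 with the 2-fold threshold. Leaving out a replicate was not possible with 1 sample per group. No paired analysis was possible because each group holds 1 sample and the labels carry no replicate numbers.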
